A study of Homo sapiens with 10 samples.

Results

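Sites of N6-methyladenosine (m6A) were described in 10 human genes whose mRNAs are immediate early or short-lived. They are JUN, JUNB, JUND, FOS, EGR1, IER2, MCL1, ZFP36L1, CCND1 and ID1. The genes were chosen by name, and a peak counted as theirs when its summit lay in a fixed hg19 span around the gene, 56 kb in all. In this way 51 peaks of 37417 on chromosomes 1 to 22, X and Y fell to the 10 genes. Peaks that overlapped between lists were merged, and the 51 peaks formed 23 sites of 22315 merged regions in the series. The study mapped m6A in 5 colon cancer cell lines, HCT116, HT29 and HCT15, labelled colorectum, and COLO320DM and COLO205, labelled colon. No line carried a treatment. Total RNA of about 300 µg per line was broken into fragments of about 100 nt, m6A-carrying fragments were captured with an antibody (immunoprecipitation, IP), and 10% was kept as input. Each line had 1 IP and 1 input library, and the deposited data used here are 1 peak list per IP.

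Immediate early genes are switched on within minutes by growth factors and stress, without new protein synthesis, and their mRNAs are removed quickly. Many of their products are transcription factors. JUN, JUNB and JUND pair with FOS proteins to form AP-1, which binds DNA and drives genes of growth and stress. m6A is added to mRNA by a nuclear methyltransferase complex, is known to be frequent near stop codons and in long exons, and is read by proteins that can speed up mRNA decay. It is therefore often studied on short-lived mRNAs, also in colon cancer cells.

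Stretches upstream of 4 of the genes show elements through which such genes are known to be induced. They are printed 5′ to 3′ from RefSeq on GRCh38.p14, with the element in capitals. The EGR1 stretch runs from 117 to 62 bases before the start and holds 2 serum response elements (CArG boxes). The JUN stretch, from 79 to 48 bases before the start, holds TGACATCA, and the others hold TGACGTCA, the cyclic AMP response element.
EGR1: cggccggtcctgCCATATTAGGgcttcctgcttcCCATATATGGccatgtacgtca
JUN: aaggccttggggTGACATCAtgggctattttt
JUND: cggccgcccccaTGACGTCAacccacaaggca
ZFP36L1: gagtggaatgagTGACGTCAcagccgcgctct
The search covered both strands of windows from 250 bases before to 50 after the start, and 8 of the 10 genes had an entry (not MCL1 or CCND1). Of all 35116 windows, 1.29% held a serum response element, 1.85% held TGACGTCA and 2.61% held TGACATCA on either strand. The 3 motifs did not overlap in the stretches shown. These letters describe the promoters and say nothing of the RNA under the peaks, whose sequence was not used here.

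The values of a peak are the authors' fold enrichment (summit over local background) and −log10 p, which rank peaks within their own list. The IP reads over each summit and the local input background in fragments were recovered from these values by the formulas of the peak caller. On these chromosomes the list of HCT15 had 905 peaks and the 4 long lists 8638 (COLO320DM) to 9835 (COLO205). IP depths, as recovered, ran from 1.38 M reads (M for mega) in HCT116 to 2.99 M in COLO205 among the long lists and reached 5.02 M in HCT15, and inputs held 1.61 M to 5.41 M. In HCT15 the IP was 3.11 times as deep as its input, against 0.552 to 0.685 times in the other lines, and what this does to its list was not tested. No summit held more than 143 IP reads, and no local input exceeded 142 fragments. Those maxima lie under the 146 to 150 start positions that a fragment-length window offers on both strands. Whether duplicate reads were removed is not given in the sources used here, and a ceiling on high counts was not tested. There were no replicates, so every difference between lines compares libraries, and no test was made.

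The 4 long lists differed in how many of the 10 genes they marked. HCT116 held 19 peaks in 8 genes, HT29 9 peaks in 5 genes, COLO320DM 12 peaks in 6 genes and COLO205 11 peaks in 7 genes. HCT15 held none. As a share of the list this was 0.206% in HCT116 (exact Clopper-Pearson 95% interval 0.124% to 0.322%) and 0.102% in HT29 (0.0466% to 0.193%). It was 0.139% in COLO320DM (0.0718% to 0.243%) and 0.112% in COLO205 (0.0558% to 0.20003%). These 4 intervals overlap. For HCT15, 0 of 905 peaks allows a share of up to 0.331% (3 counts of 905; the exact Clopper-Pearson upper limit is 0.407%), above the share in every long list, so the lack of peaks there was not distinguishable from the short length of that list. The intervals and limits cover counting error only.

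**Figure D1:**
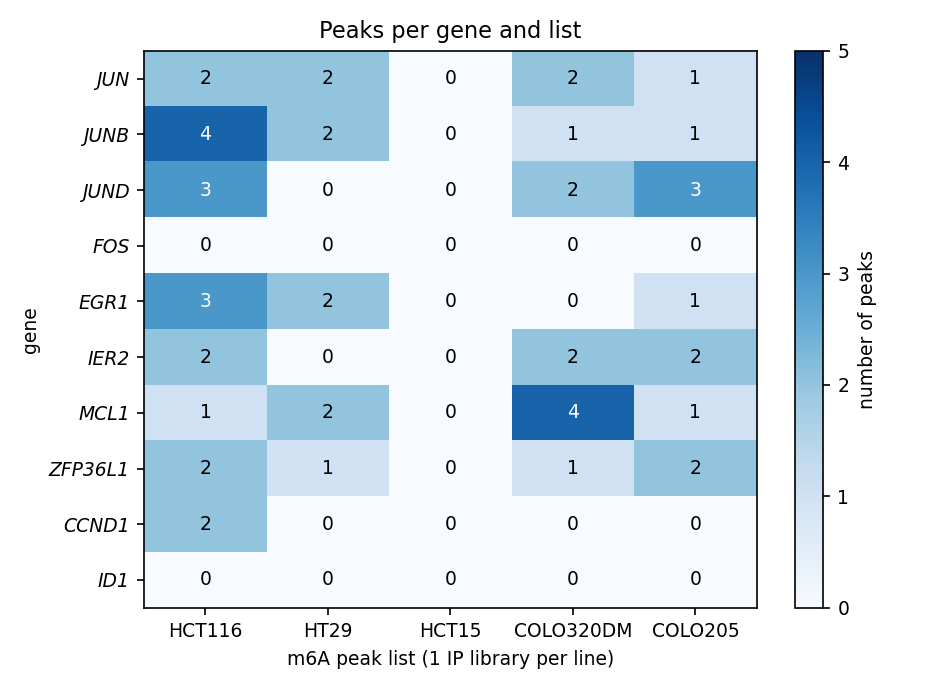
Number of m6A peaks with a summit in each gene (rows) in each list (columns, 1 IP library per line), given as digits and as colour. HCT116 marks 8 genes and HCT15 none, and the rows of FOS and ID1 are 0 throughout.

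JUN, JUNB, MCL1 and ZFP36L1 had a peak in each of the 4 long lists. JUND and IER2 had peaks in HCT116, COLO320DM and COLO205 and none in HT29, so these 2 genes matched each other in 5 of 5 lists. EGR1 had peaks in HCT116, HT29 and COLO205 and none in COLO320DM. CCND1 had peaks in HCT116 alone, and FOS and ID1 in no list. A list gives no level where it has no peak, so a missing peak can mean little RNA, little m6A or too few reads, and these cannot be told apart.

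JUN, the founding AP-1 subunit, had 2 sites. The stronger one, JUN site 2, lay at chr1:59247335-59248039 and was held by the 4 long lists. HCT116 had a fold of 5.25 there, HT29 4.71, COLO320DM 5.36 and COLO205 9.97. COLO205 stood highest and the other 3 lay close together. IP reads over the summit were 56 in HCT116 on 16 local input fragments, 56 in HT29 on 16.2, 39 in COLO320DM on 10 and 42 in COLO205 on 6. JUN site 2 was also among the widest peaks of each list, with 704 nt for HCT116, 547 nt for HT29, 630 nt for COLO320DM and 603 nt for COLO205, at the 96.9th percentile of width in HT29 and higher in the other 3 lists. JUN site 1, at chr1:59248332-59248751, had folds of 2.98 in HCT116, 2.94 in HT29 and 3.71 in COLO320DM, and no peak in COLO205. The summits of the 2 sites lay 887 nt apart in HCT116, 891 nt apart in HT29 and 903 nt apart in COLO320DM.

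JUNB, an AP-1 subunit that can restrain JUN, had 4 sites. Only JUNB site 4, at chr19:12903601-12903790, was held by the 4 long lists. HCT116 had a fold of 3.34 there, HT29 2.58, COLO320DM 11.3 and COLO205 9.90. The 2 lines labelled colon thus stood far above the 2 labelled colorectum that have a peak there, each as 1 library. Folds did not divide by label at every site. At JUND site 3 COLO320DM (3.61) lay below HCT116 (4.63), while at both IER2 sites it lay above. In reads at JUNB site 4 the order was different: HCT116 had 64, HT29 37, COLO320DM 25 and COLO205 29. Local input came to 30 fragments for HCT116, 20 for HT29, 2 for COLO320DM and 3.68 for COLO205, so the high folds went with little input. Scaled to input depth, input was 15.2 times as high in HCT116 as in COLO320DM, with a counting interval of 3.87 to 132. JUNB site 1, at chr19:12902538-12902692, was held by HCT116 (fold 2.21) and HT29 (fold 2.93), and sites 2 and 3 by HCT116 alone, with folds of 2.69 and 2.16. RefSeq on GRCh38 places HOOK2 over part of JUNB, and the lists carry no strand, so RNA of these 2 genes cannot be told apart there. None of the other 9 genes overlaps another gene in that table.

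JUND, the AP-1 subunit that is present also in resting cells, had 3 sites. JUND site 3, at chr19:18390951-18391169, was the strongest in each list that held it. HCT116 had a fold of 4.63 there (55 IP reads over 18 input fragments), COLO320DM 3.61 (33 over 13) and COLO205 6.65 (35 over 8). JUND site 2, at chr19:18391407-18391571, had folds of 2.16 in HCT116, 2.93 in COLO320DM and 3.96 in COLO205. JUND site 1, at chr19:18392282-18392374, had folds of 3.23 in HCT116 and 5.55 in COLO205. COLO205 had the highest fold at all 3 sites. FOS, the usual partner of the JUN proteins, had no peak in any list.

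EGR1, a zinc finger transcription factor induced by serum, had 3 sites. EGR1 site 3, at chr5:137803678-137803893, had folds of 3.79 in HCT116, 6.09 in HT29 and 14.8 in COLO205. The fold of COLO205 was the highest of all 51 peaks and was above 97.9% of its own list. The reads ran the other way, with 79 in HCT116, 51 in HT29 and 22 in COLO205, over 32.6, 11 and 1 local input fragments. Input scaled to depth was 19.2 times as high in HT29 as in COLO205, with a counting interval of 2.79 to 826 that rests on 1 fragment in COLO205. EGR1 site 2, at chr5:137802707-137802939, differed between HCT116 and HT29, with folds of 1.97 and 5.74. HCT116 had 69 IP reads there over 56 input fragments, and HT29 had 48 over 11. EGR1 site 1, at chr5:137801613-137801688, was held by HCT116 alone, with a fold of 1.90, the lowest of the 51, over the highest input of the 51, 60 fragments.

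IER2, a nuclear protein named for its immediate early induction, had 2 neighbouring sites. IER2 site 1, at chr19:13264241-13264600, had folds of 2.30 in HCT116, 6.85 in COLO320DM and 6.67 in COLO205. IER2 site 2, at chr19:13264679-13265069, had folds of 2.61 in HCT116, 6.64 in COLO320DM and 8.03 in COLO205. HCT116 was the lowest at both, and COLO320DM and COLO205 lay close together. At site 1 the summits had 65 IP reads in HCT116, 28 in COLO320DM and 25 in COLO205, over 45, 5 and 5.25 input fragments. Input scaled to depth was 9.15 times as high in HCT116 as in COLO320DM there (3.64 to 29.5).

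MCL1, an anti-apoptotic BCL2-family protein that turns over fast, had 4 sites, and it was the gene with the most peaks in COLO320DM. MCL1 site 3, at chr1:150551374-150551568, had folds of 3.14 in HCT116, 2.18 in HT29 and 2.16 in COLO320DM. COLO320DM had 64 IP reads there over 45 input fragments, HCT116 35 over 17 and HT29 31 over 20. MCL1 site 2, at chr1:150549713-150549846, had folds of 3.52 in COLO320DM and 6.46 in COLO205. The reads ran the other way there, with 39 over 16 input fragments in COLO320DM and 10 over 1.275 in COLO205. MCL1 site 1, at chr1:150549523-150549645, had folds of 4.11 in HT29 and 2.99 in COLO320DM. MCL1 site 4, at chr1:150551897-150551994, was held by COLO320DM alone, with a fold of 2.13. The HT29 peak at site 3 was the weakest of the 51, with a −log10 q of 1.52.

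ZFP36L1 binds AU-rich elements and brings about the decay of such mRNAs, and it had 3 sites. ZFP36L1 site 3, at chr14:69256122-69256485, had folds of 2.66 in HCT116, 2.81 in HT29 and 3.89 in COLO205. The summits there had 54, 23 and 33 IP reads over 32, 11 and 14 input fragments. ZFP36L1 site 2, at chr14:69257061-69257152, had folds of 2.29 in HCT116 and 3.05 in COLO205. COLO320DM held neither site. Its peak, ZFP36L1 site 1 at chr14:69261863-69261943, had a fold of 6.62 but rested on 7 IP reads over 0.321 input fragments. It was the only peak of the 51 over less than 1 local input fragment.

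CCND1 (cyclin D1, which activates cyclin-dependent kinases in G1 phase) had peaks in HCT116 alone. CCND1 site 1, at chr11:69455987-69456141, had a fold of 3.35 with 58 IP reads over 27 input fragments. CCND1 site 2, at chr11:69466021-69466098, had a fold of 2.41 with 49 IP reads over 32 input fragments, and the summits lay 10052 nt apart. ID1, an inhibitor of basic helix-loop-helix transcription factors, had no peak in any list.

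**Figure D2:**
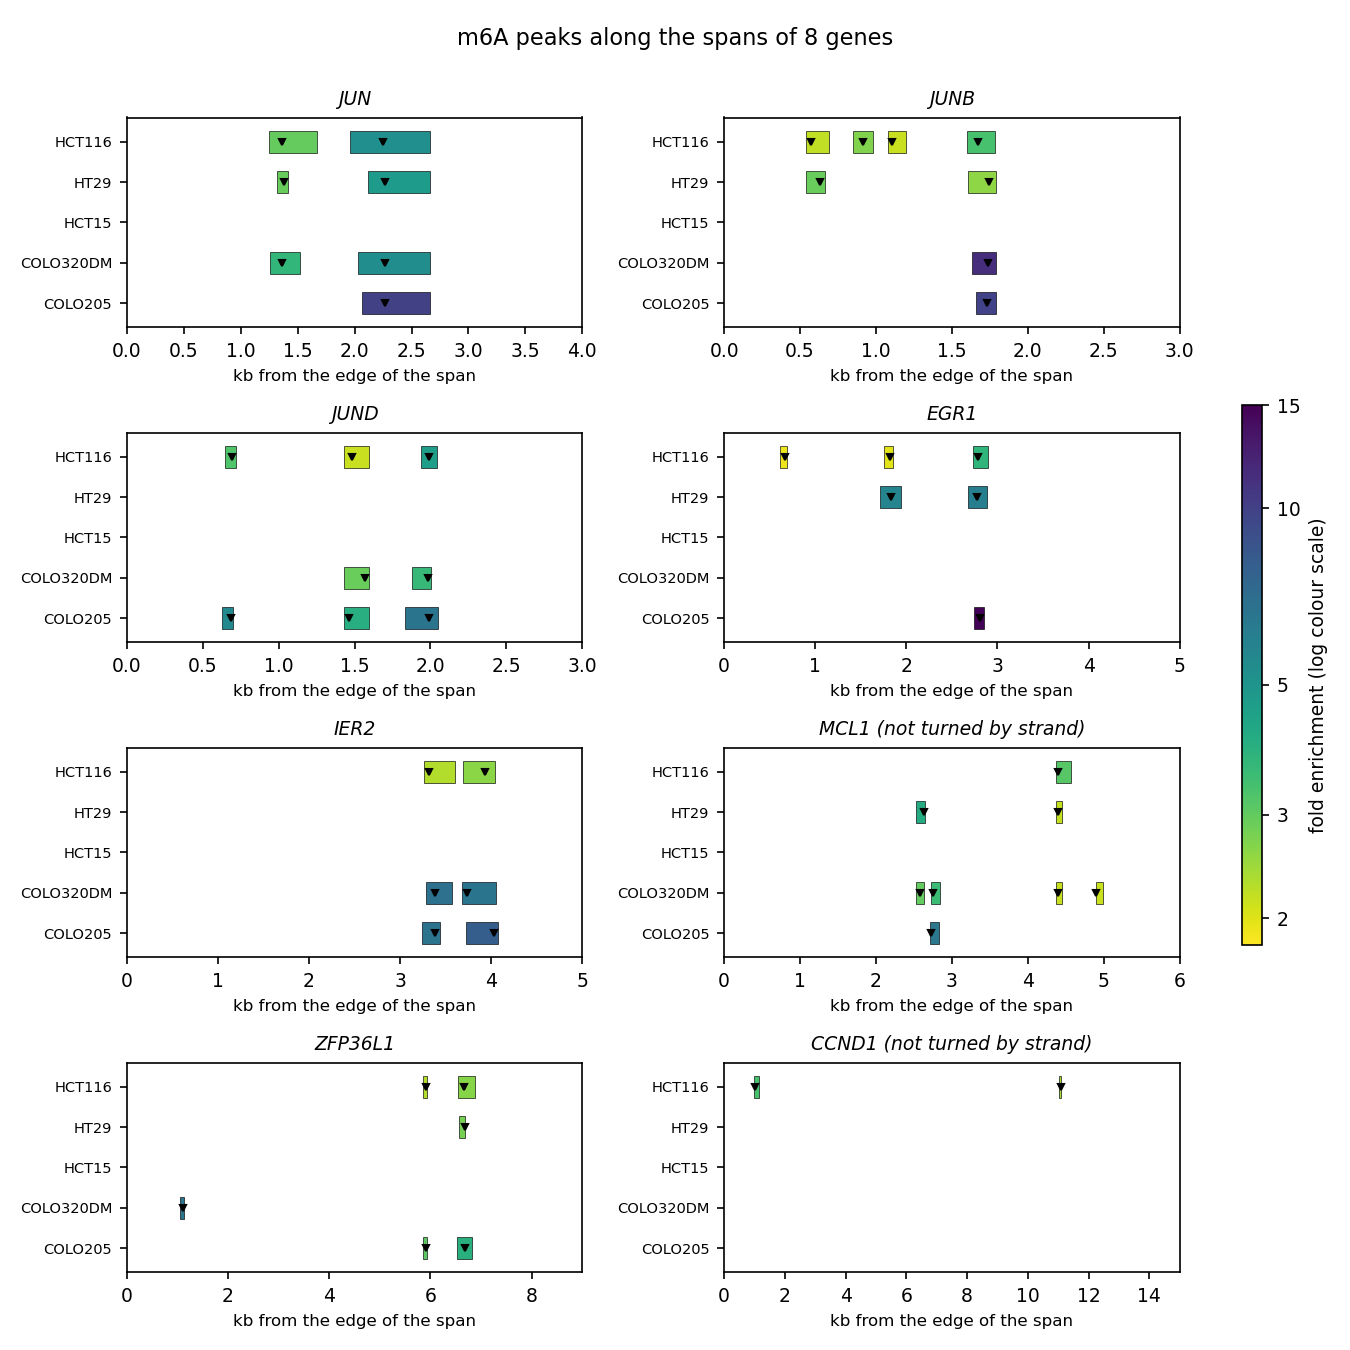
Peaks (bars) and summits (triangles) of the 5 lists along the spans of the 8 genes that had any, in kb from the edge of the span where the gene begins, or from its lower coordinate for MCL1 and CCND1. Colour gives the authors' fold on a log scale, and sites of different lists stand above each other, most closely at MCL1 site 3, where the summits of HCT116, HT29 and COLO320DM lay within 2 nt.

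Most sites were marked by more than 1 list. Of the 23 sites, 16 (69.6%) were held by 2 or more lists, against 36.0% of all merged regions. Of the 22 sites whose peaks all had at least 1 local input fragment, 16 were, against 41.8% of such regions. Where all had at least 5, the share of regions was 34.7%, and the like share of these sites was not computed. JUN site 2 and JUNB site 4, 2 of the 23, were held by the 4 long lists, against 6.87% of all regions. HCT116 held 19 of the 23 sites (40.2% of all regions), HT29 9 (38.3%), COLO320DM 12 (38.1%) and COLO205 11 (42.4%). HCT15 held 0 (3.59%). The count of HCT116 stood farthest above its share of all regions, but a threshold on fold changed the order. At a fold of at least 4 it held 2 peaks, while HT29 held 4, COLO320DM 5 and COLO205 8. The share of all peaks at that fold was not computed. Above the median fold of its own list lay 1 of 19 peaks in HCT116, 2 of 9 in HT29, 5 of 12 in COLO320DM and 7 of 11 in COLO205. Median local input under these peaks was 32 fragments in HCT116 and 6 in COLO205, and what this does to the counts was not tested. Of the 19 HCT116 sites, 14 were also in another list, beside 60.7% for all HCT116 regions. All 9 HT29 sites and all 11 COLO205 sites were in another list, beside 62.5% and 63.7%. COLO320DM shared 10 of its 12 sites, beside 52.1%.

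Summits of different lists lay about as close together at these sites as over all shared regions. Over the 16 sites in 2 or more lists, the summits of the strongest peaks spanned a median of 24 nt, and over all 8025 such regions a median of 33 nt. They lay within 20 nt of each other at 8 of the 16 sites, beside 38.0% of all such regions. Within 50 nt lay those of 11 of the 16, beside 62.5%. JUND site 3 spanned 4 nt over HCT116, COLO320DM and COLO205, JUN site 2 17 nt over the 4 long lists, and EGR1 site 2 3 nt over HCT116 and HT29. JUND site 2 spanned 104 nt and JUNB site 4 73 nt. The widest spread was 301 nt, at IER2 site 2, where the summits moved within overlapping peaks of 344 to 369 nt.

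The strand was known for 6 of the genes with peaks, and there the strongest peak usually lay farthest from the gene's beginning. A list held 2 or more sites of such a gene in 15 cases, and the last site had the highest −log10 p in 14 of them. These cases are the same 6 genes in lists that share sites, so they are not separate observations, and no such share was computed over other genes. The exception was IER2 in COLO320DM, with 17.5 at site 1 and 13.995 at site 2. By fold the count was 13 of 15, since JUNB in HT29 had 2.93 at site 1 and 2.58 at site 4. MCL1 and CCND1 are not in these counts, as their strand was not used here. Their sites are numbered by coordinate. In COLO320DM the highest −log10 p of MCL1, 11.7, was at site 2 of its 4 sites, so at neither end. In HT29 MCL1 had 8.51 at site 1 and 4.76 at site 3. In HCT116 CCND1 had 15.2 at site 1 and 8.10 at site 2. No hg19 gene models were used here, so the sites are not assigned to exons, stop codons or untranslated regions.

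At sites held by 3 or more lists, the list with the most IP reads was also the list with the most input. There were 10 such sites, and HCT116 had the most IP reads per M of IP depth at 9 of them and the most local input per M of input depth at the same number. The exception in both was MCL1 site 3, where COLO320DM was highest. Over other regions held by 3 or more long lists, HCT116 was highest in IP reads at 44.4% and in input at 34.8% of its 3488 regions. COLO205 held 8 of the 10 sites, had the least input at all 8 and the highest fold at 6. Over its 3461 other regions it had the least input at 63.5% and the highest fold at 41.2%.

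**Figure D3:**
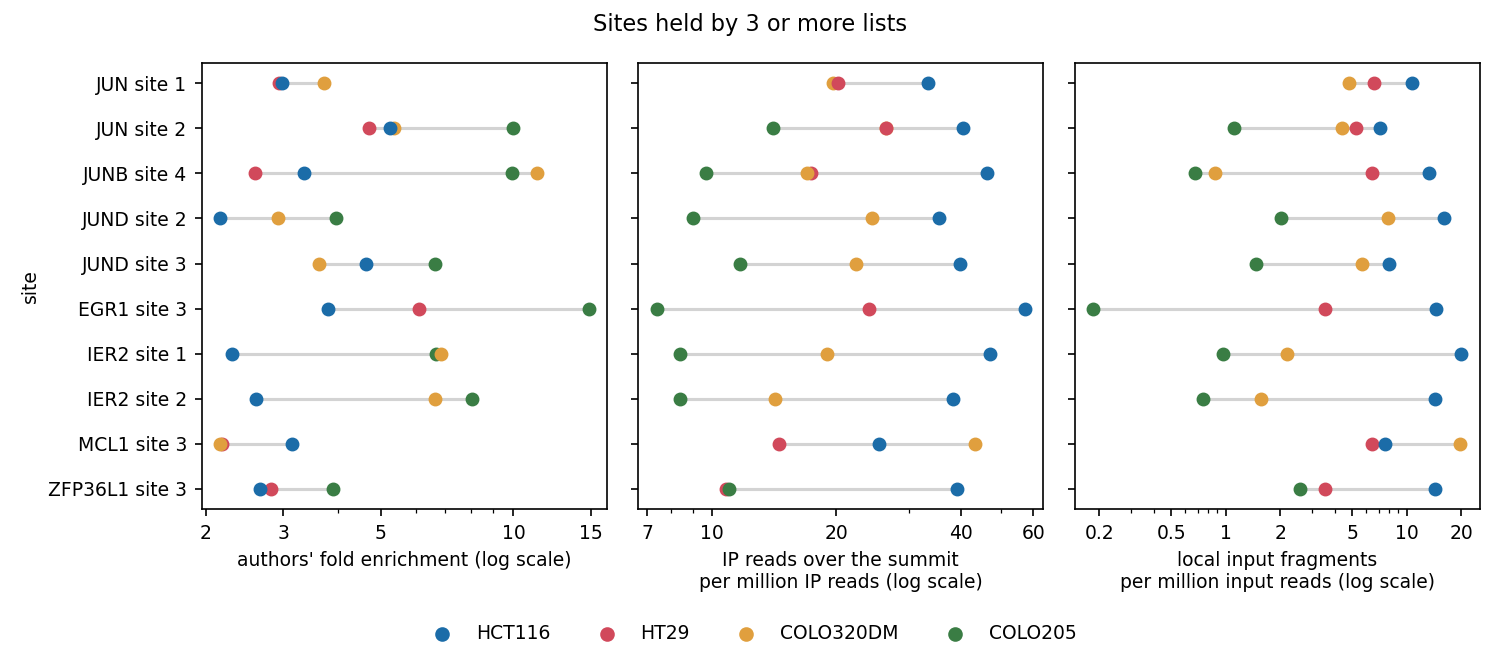
Fold enrichment (left), IP reads over the summit per M IP reads (middle) and local input fragments per M input reads (right) at the 10 sites held by 3 or more lists, each on a log axis. Each point is 1 library. HCT116 lies farthest right in the middle and right panels at 9 sites, while COLO205 has the highest fold at 6 of its 8 sites.

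The pairs of lists give the sizes. HCT116 and COLO205 shared 10 sites. In HCT116 the fold was lower at 10 of the 10, with a median ratio over COLO205 of 0.536, beside 0.891 over 2156 other regions with at least 1 local input fragment in both. Its IP reads per M were 3.80 times those of COLO205 at the median site, beside 2.63 over the other regions. Its local input was 7.57 times that of COLO205, beside 3.62. HCT116 against HT29, over 8 sites, gave median ratios of 0.980 in fold, 2.30 in IP reads and 3.05 in input, beside 1.15, 1.66 and 1.38 over other such regions. HCT116 against COLO320DM, also over 8 sites, gave 0.770, 1.74 and 2.13, beside 1.05, 1.01 and 0.924. HT29 against COLO320DM gave 0.879, 0.995 and 1.19 over 5 sites, beside 0.932, 0.574 and 0.599. HT29 against COLO205 gave 0.442, 1.83 and 7.10 over 4 sites, beside 0.825, 1.41 and 1.91. COLO320DM against COLO205 gave 0.739, 1.91 and 3.86 over 7 sites, beside 0.796, 2.79 and 4.75. A lower fold at these mRNAs in HCT116 than in COLO205 thus stood beside more IP reads, with a still larger difference in input. The other regions needed only 1 local input fragment in each list, while the HCT116 peaks of the 10 genes had 16 to 60. They were not matched to the sites on reads or input, so the ratios are not shown to be particular to these genes.

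Counting error was small for many of these differences. Over 42 pairs of lists at 16 sites, the exact conditional 95% interval of the ratio of IP reads per M left out 1 in 35, with no adjustment over the pairs. Over 19993 pairs at other shared regions it did so in 35.1%. The sites of the 10 genes hold more reads, with a median of 55 in HCT116 (11 at its other peaks), 37 in HT29 (8), 32 in COLO320DM (12) and 27 in COLO205 (9), and more reads give a narrower interval. At EGR1 site 3 HCT116 had 7.77 times the reads per M of COLO205 (4.80 to 13.1). At IER2 site 1 it had 5.63 times those of COLO205 (3.50 to 9.32), and at JUNB site 4 4.78 times (3.04 to 7.68). At JUN site 2 HT29 and COLO320DM gave 0.995 (0.650 to 1.54), an interval that holds 1. At MCL1 site 3 HCT116 had 0.584 times the reads of COLO320DM (0.375 to 0.895). The local input was a whole number of fragments, within 0.01, at 40 of the 51 peaks. In the 25 pairs where both inputs were whole, the interval of the input ratio left out 1 in 21, beside 23.5% of 8202 such pairs at other regions. These intervals hold no spread between cultures, and the pairs share libraries. Each pair compares the strongest peak of each list at a site, at its own summit, and only lists that called a peak there. The summits need not be at the same position, and at IER2 site 2 they spanned 301 nt. The intervals do not allow for this.

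Local input was high under the peaks of these genes. Of the 51 peaks, 50 had at least 1 local input fragment, namely all 19 in HCT116 (58.0% of all peaks of that list), all 9 in HT29 (38.7%), 11 of 12 in COLO320DM (62.2%) and all 11 in COLO205 (51.4%). The median input was 32 fragments in HCT116 against 1.02 for its other peaks, 13 against 0.240 in HT29, 11.975 against 1.46 in COLO320DM and 6 against 1 in COLO205. IP reads were high as well, with medians of 55 against 11 in HCT116, 37 against 8 in HT29, 32 against 12 in COLO320DM and 27 against 9 in COLO205. The fold was below that of other peaks in 3 lists, with medians of 2.66 against 5.11 in HCT116, 2.94 against 5.67 in HT29 and 3.66 against 5.23 in COLO320DM. In COLO205 it was above, at 6.65 against 5.70.

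Fold and local input are tied, since the background is the denominator of the fold. Over peaks with at least 1 local input fragment, the Spearman correlation of input and fold was -0.576 in HCT116 (5344 peaks), -0.543 in HT29 (3416), -0.618 in COLO320DM (5377) and -0.391 in COLO205 (5059). These are across peaks of 1 library, which are not independent. Set beside other peaks in the same range of input, the median fold was 2.66 against 2.95 in HCT116, 2.94 against 4.07 in HT29, 3.66 against 5.67 in COLO320DM and 6.65 against 6.02 in COLO205. That range is wide in COLO320DM, where 1 member peak lies at 0.321 fragments, and in COLO205, where it runs from 1 to 19. The other peaks in the range still had fewer IP reads there, with medians of 17 against 32 in COLO320DM and 16 against 27 in COLO205. In these 2 lists the comparison is therefore not a close match on input. The other peaks in the range had fewer IP reads in HCT116 (48 against 55) and HT29 (30 against 37) too, so a close match was not shown there either. The count of peaks with a −log10 q of at least 5 was 12 of 19 in HCT116 (53.9% of all peaks of that list) and 4 of 9 in HT29 (59.5%). It was 8 of 12 in COLO320DM (54.6%) and 10 of 11 in COLO205 (59.5%). The 4 HT29 peaks that passed were JUN sites 1 and 2 and EGR1 sites 2 and 3.

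**Figure D4:**
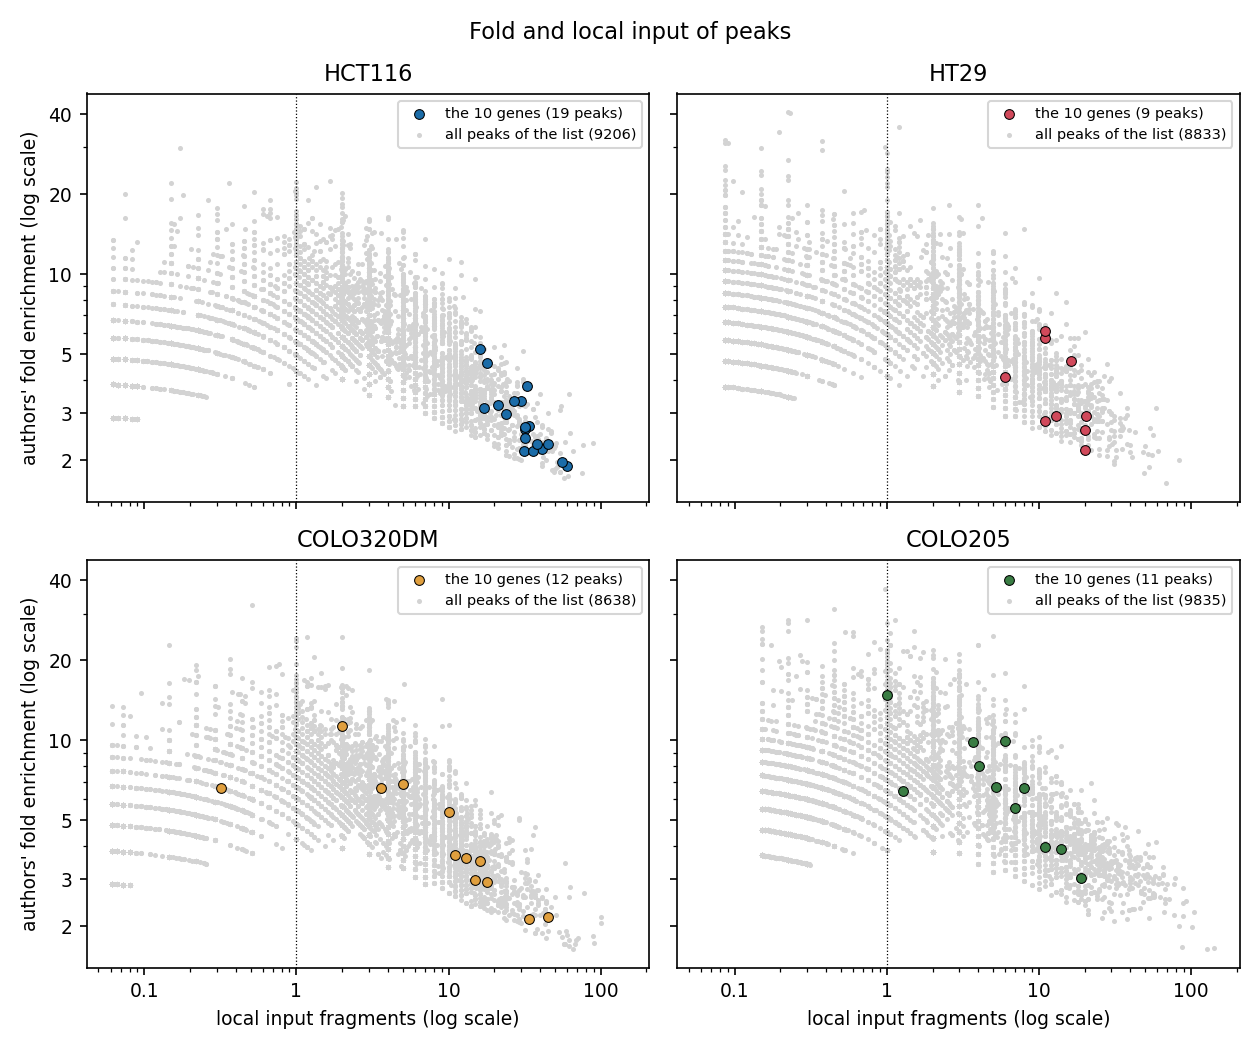
Authors' fold against local input fragments, both on log axes, for the peaks of the 10 genes (coloured) and all peaks (grey) in the 4 long lists, with a dotted line at 1 fragment. The coloured peaks lie right of the line except for 1 in COLO320DM, and fold goes down from left to right beyond it in every panel.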

How the data were processed

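Peak lists of 5 m6A IP libraries were analysed. The 5 inputs entered only through the lists. Per the submitters' processing notes, hg19, cutadapt, FastQC, BWA and MACS2 were used, with no version or setting given. Each peak carries, in the lists the authors deposited, a fold (a ratio over local background), a −log10 p, a −log10 q and a score, which is the −log10 q times 10 without decimals for 99.99% of COLO205 peaks and 100% of the other lists. Positions are hg19, counted from 1. Reads and backgrounds were recovered as fold = (reads + 1) / (background + 1), with p the Poisson probability of more reads. A whole number of reads met every deposited −log10 p within 0.001, in HCT15 with each IP read counted as 0.322. On 1000 simulated peaks for each of the unscaled and scaled cases, 100% of reads were recovered. Those peaks were made with the same formulas and the scale was given, so this checks the computation only. Depths assume a genome of 2.7 Gb and fragments as long as the shortest peak (73 to 75 nt). That the control was the input of the same line is assumed. Local input is the largest of several windows and so not always a count over the summit. Peaks sharing at least 1 nt were merged. The genes and lists were chosen with earlier results of these data known. All 10 are named, each with its strongest peak per list and every other peak. Scripts ran on Python 3.11.15 with scipy 1.17.1, numpy 2.4.6, matplotlib 3.10.9 and pandas 2.3.3. Alternatives were thresholds on −log10 q, fold and reads, equally long lists, overlap and span rules, lists left out, 1 input threshold for all lists and a pseudocount of 0. A planned list of other immediate early genes was not run, as no hg19 annotation was used here.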

Additional observations from a re-analysis of the deposited data

How the results depend on the processing

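Of 84 alternative values, 56 stayed within the set bounds and 28 moved. A change from 12 to 8 peaks in COLO320DM counted as within bounds, and one from 19 to 12 in HCT116 as moved. The counts of HCT15 are among those that stayed, but they began at 0, so a stricter threshold could not move them. Widening spans by 1 kb, counting any overlap with the span, or asking for at least 5 IP reads moved no count of peaks or genes. The threshold on reads could not move any, since the fewest IP reads of any of the 51 peaks was 7. A −log10 q of at least 5 left 12 peaks in HCT116 and 4 in HT29, where 2 genes were then marked. A fold of at least 4 left 2 peaks in 2 genes of HCT116, 4 peaks in 3 genes of HT29 and 5 peaks in COLO320DM, beside 8 in COLO205. With the 905 strongest peaks of each list by −log10 p there were 3 peaks in 3 genes of HCT116, 3 in 2 genes of HT29, 1 in 1 gene of COLO320DM and 3 in 3 genes of COLO205. Ranked by fold, there were 0 peaks and 0 genes in HCT116 and HT29, and 1 peak in 1 gene in COLO320DM and in COLO205. HCT116, with the most peaks, thus led neither under a fold threshold nor among the highest folds. The share of all peaks of each list at a fold of at least 4 was not computed beside these counts, so the order of lines describes these counts only. The 2 sites in the 4 long lists became 1 with a −log10 q of at least 5, 6 without HT29, 4 without COLO320DM and 4 without COLO205. Without HCT116 or HCT15, with 50% reciprocal overlap or with summits within 100 nt the number was 2. Ranking by fold kept 25 of 26 strongest peaks. With 1 input threshold for all lists the share over input in COLO205 was 81.8% in place of 100%. A pseudocount of 0 met the deposited −log10 p of 0% of the strongest peaks. No paired analysis was possible because each line had 1 IP library and no test was made. IP depths of 1.38 M to 2.99 M reads in the long lists limit what a missing peak can mean.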
